A study of Arabidopsis thaliana with 18 samples.

Results

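The 9 loci of Arabidopsis thaliana that encode the microRNAs miR165 and miR166 were followed through a table of 22-nt small RNA reads per gene: MIR165a (AT1G01183), MIR165b (AT4G00885), MIR166a (AT2G46685), MIR166b (AT3G61897), MIR166c (AT5G08712), MIR166d (AT5G08717), MIR166e (AT5G41905), MIR166f (AT5G43603) and MIR166g (AT5G63715). They were taken by gene identifier, with no measured value used, and all 9 were present among the 32420 genes of the table. RefSeq annotates each of the 9 as a miRNA gene. They are 9 of the 178 RefSeq miRNA loci that the table holds.

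MicroRNAs of plants are cut from hairpin transcripts by the nuclease DCL1 and guide an Argonaute protein to matching mRNAs. miR165 and miR166 pair with the mRNAs of the class III HD-ZIP transcription factors REV, PHB, PHV, HB-8 (ATHB8) and CNA, and their cleavage of these mRNAs restricts where the factors act. In the leaf they keep the factors to the upper side. In the root they move from the endodermis into the stele and help set xylem cell identity, and the shoot meristem needs AGO10, which binds them away from AGO1. The mature RNAs are mostly 21 nt long, so reads of 22 nt sample a minor length class of each locus. DCL4 and DCL2 are other members of the Dicer family that cut long double-stranded RNA into siRNAs, DCL4 those of 21 nt and DCL2 those of 22 nt.

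The study compared seedlings of the double mutant dcl4-2 dcl2-1, the single mutant dcl4-2 and the wild type Col-0, on MS medium with 1 µM of the stress hormone abscisic acid (ABA) and on MS medium alone. Whole seedlings of 14 days were sampled, with 3 biological replicates in each of the 6 groups, 18 libraries in all. Both mutant genotypes carry dcl4-2, and the double mutant adds dcl2-1. The growth field of the labels instead describes aerial parts of older plants moved to soil, so the groups were taken from what each sample's own labels say of genotype, medium and age.

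The deposited values are group means of reads per 1 M reads of the library (RPM), and the reads of the 3 libraries behind each mean were recovered from it. The libraries of a group are called A, B and C by falling depth and carry no replicate number. Depth ran from 0.0953 to 12.7 M reads, and a single read was worth 0.0789 to 10.5 RPM. The shallowest libraries were library C of dcl4-2 dcl2-1 on MS and library C of dcl4-2 dcl2-1 on ABA, with 0.0953 and 0.181 M reads. The DCL2 and DCL4 genes had group means of at most 0.364 and 0.145 RPM, too few reads to check the genotype labels. The nitrate reductase genes NIA1 and NIA2 together took 89.2% of the gene RPM in dcl4-2 on ABA, 44.1% in dcl4-2 on MS and 0.460% to 5.32% in the other groups. Their part in the results below was measured only by taking them out of the library totals or out of the RPM of all genes.

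The mature RNAs come from the 3′ arm of all 9 hairpins and are shown first because they separate the 2 families. The seed, bases 2 to 8, is in capitals, and the sequences here and below are from RefSeq TAIR10.1 (read 5′ to 3′ as DNA, with T for U).
miR165 (MIR165a, MIR165b): tCGGACCAggcttcatccccc
miR166 (MIR166a to MIR166g): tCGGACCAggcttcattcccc
The families share the seed and differ by T17C, given as the miR166 base, the position counted from 1 at the 5′ end and the miR165 base. A 5′-arm RNA is annotated at MIR165a, MIR166a, MIR166b and MIR166e.

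**Figure D1:**
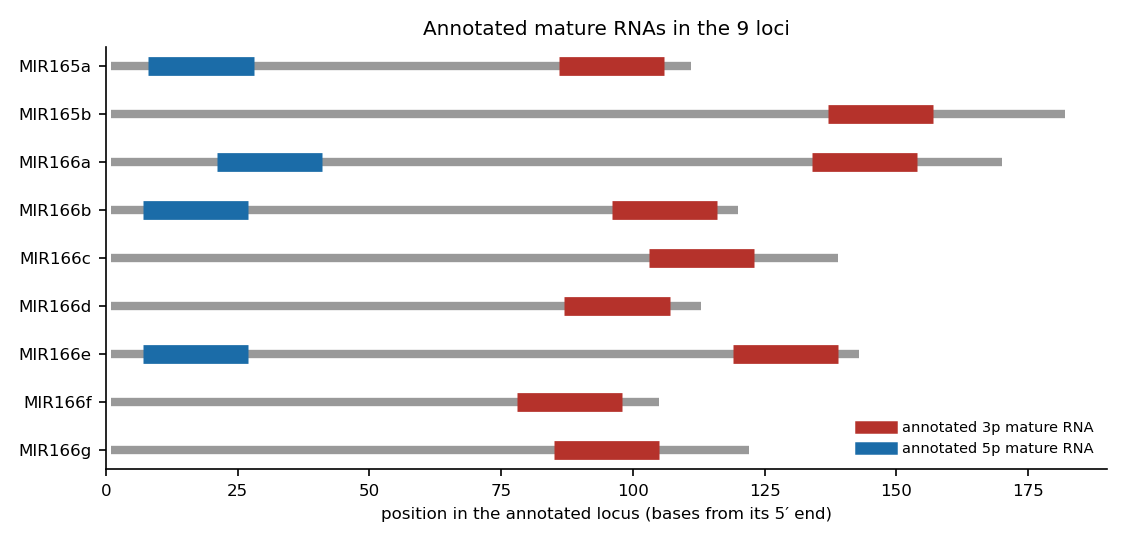
Position of the annotated mature RNAs in each locus, in bases from the 5′ end of the locus (grey bar, to scale). The 3p RNA (red) is annotated in all 9 loci and the 5p RNA (blue) in 4 of them; the loci are 105 to 182 bases long.

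A 22-nt read that begins at the 5′ end of the mature RNA and matches the genome also holds the next base, and that base sorts the 9 loci into 4 classes. The windows are shown because they decide which loci such a read can be assigned to; the capital is the base after the annotated end.
MIR165a: tcggaccaggcttcatcccccC
MIR165b: tcggaccaggcttcatcccccT
MIR166a, MIR166b, MIR166c and MIR166d: tcggaccaggcttcattccccC
MIR166e, MIR166f and MIR166g: tcggaccaggcttcattccccT
The MIR165a and MIR165b windows each occur at 1 place in the genome. The third window occurs at 4 places and the last at 3, all of them these loci. A 22nd base copied from the locus and an equal base added to a 21-nt RNA cannot be told apart from these sequences, and the table holds no read sequences. How many reads of a locus match its window is therefore not known. MIR166a to MIR166d share a window but not their read numbers, with 234, 52, 25 and 24 reads in library A of Col-0 on ABA.

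The hairpins of the MIR165 pair and of MIR166e, MIR166f and MIR166g carry the main results, and each is printed with its 22-nt window in capitals.
MIR165a hairpin, chr1:78927-79037, minus strand: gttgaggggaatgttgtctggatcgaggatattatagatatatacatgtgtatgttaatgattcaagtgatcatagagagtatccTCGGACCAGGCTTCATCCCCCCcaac
MIR165b hairpin, chr4:369831-370012, minus strand: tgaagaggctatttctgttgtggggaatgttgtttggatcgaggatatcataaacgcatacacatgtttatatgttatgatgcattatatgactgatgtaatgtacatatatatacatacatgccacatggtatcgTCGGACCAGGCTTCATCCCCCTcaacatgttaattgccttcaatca
MIR166e hairpin, chr5:16775520-16775662, minus strand: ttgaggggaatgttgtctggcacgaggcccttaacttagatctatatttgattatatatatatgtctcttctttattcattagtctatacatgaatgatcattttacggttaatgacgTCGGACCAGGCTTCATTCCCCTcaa
MIR166f hairpin, chr5:17516301-17516405, plus strand: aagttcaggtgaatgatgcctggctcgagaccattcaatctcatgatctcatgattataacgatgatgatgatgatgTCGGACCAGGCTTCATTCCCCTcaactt
MIR166g hairpin, chr5:25504798-25504919, plus strand: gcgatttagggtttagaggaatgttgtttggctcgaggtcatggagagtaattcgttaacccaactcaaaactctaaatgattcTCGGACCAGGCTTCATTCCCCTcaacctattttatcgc
MIR165a and MIR165b share no stretch of 22 bases with each other or with any MIR166 locus. All 90 stretches of 22 bases in MIR165a and all 161 in MIR165b occur at a single place in the genome. MIR166e shares 5 such stretches with MIR166f and 4 with MIR166g, and MIR166f shares 5 with MIR166g. The other loci lie at chr2:19176108-19176277 (MIR166a), chr3:22922206-22922325 (MIR166b), chr5:2838635-2838773 (MIR166c) and chr5:2840622-2840734 (MIR166d), all on the plus strand. MIR166c and MIR166d are 1848 bases apart and share 14 stretches, and MIR166a shares 15 with MIR166b.

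The target sites are shown because they are what the 2 families have in common in function. Each is read 5′ to 3′ on the mRNA, and capitals mark bases that do not pair with miR166, a G opposite a U included.
REV site: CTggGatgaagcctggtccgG
PHB site: TTggGatgaagcctggtccgG
PHV site: TTggGatgaagcctggtccgG
HB-8 site: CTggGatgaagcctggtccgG
CNA site: CTggaatgaagcctggtccgG
Each site lies in coding sequence and spans an exon junction after its base 11. The REV site covers chr5:24398787-24398898 with its intron. REV, PHB, PHV and HB-8 have 4 capitals and CNA has 3. With miR165 the count of unpaired bases is 3 at REV, PHB, PHV and HB-8 and 4 at CNA.

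MIR166e, MIR166f and MIR166g were the most abundant of the 9 loci, with means over the 6 groups of 744, 744 and 745 RPM. Their reads were nearly identical library by library. MIR166e and MIR166f had equal read numbers in 11 of 18 libraries and never differed by more than 4 reads. MIR166e and MIR166g were equal in 8 of 18 libraries, and the largest difference was 8 reads. The sources used here do not say how reads that match several places were counted, and the 3 loci are therefore read below as 1 measurement given under 3 names. Counts out of the 9 loci below still list all 3 names, also where a share of all tested genes stands beside them. Scaled to locus length, the level was 708 RPM per 100 bases at MIR166f, 610 at MIR166g and 520 at MIR166e. The order of these 3 only reflects their annotated lengths of 105, 122 and 143 bases, since their reads are nearly the same. On the same per-length scale MIR165b reached 78.0, MIR166a 67.4, MIR165a 26.9, MIR166b 22.4, MIR166d 15.4 and MIR166c 14.3 RPM per 100 bases. MIR166g had the highest mean RPM of all genes of the table in dcl4-2 dcl2-1 on MS, where it ranked 1, and ranked 5 in dcl4-2 dcl2-1 on ABA.

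Levels were highest in dcl4-2 on ABA at all 9 loci. For MIR166e, libraries A, B and C had 313, 327 and 547 RPM in dcl4-2 dcl2-1 on ABA and 754, 692 and 703 RPM in dcl4-2 dcl2-1 on MS. In dcl4-2 the 3 libraries had 1255, 1164 and 2210 RPM on ABA, against 625, 113 and 953 RPM on MS. Col-0 libraries had 626, 465 and 1139 RPM on ABA, against 683, 448 and 379 RPM on MS. In the set of reads used here, all 3 dcl4-2 libraries on ABA were above every other library, and all 3 dcl4-2 dcl2-1 libraries on ABA were below those of the same genotype on MS.

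The MS values of the double mutant have a limit. For MIR166e, 27 sets of whole reads gave the same deposited mean of 716 RPM, since 52 reads of library B trade against 5 reads of the shallow library C. The set with the smallest spread is the one used throughout, with an SD of 33.0 RPM, and the most unequal set has an SD of 688 RPM. In all sets library A stays at 754 RPM, while library B could lie anywhere from 10.09 to 1374 RPM. MIR165b had 2 such sets and MIR166a 3, and the other loci outside MIR166e to MIR166g had 1.

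MIR165b, the more abundant of the miR165 loci, had 348, 304 and 652 RPM in dcl4-2 on ABA, against 66.2, 18.04 and 140 RPM in dcl4-2 on MS. In Col-0 it had 139, 83.6 and 182 RPM on ABA, against 54.2, 41.4 and 29.3 RPM on MS. In dcl4-2 dcl2-1 it had 49.3, 53.5 and 227 RPM on ABA, against 61.2, 32.3 and 73.5 RPM on MS. The ABA libraries lay above the MS libraries without overlap in dcl4-2 and in Col-0, and the groups overlapped in the double mutant, where library C on ABA was far above libraries A and B.

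MIR165a was lower throughout. It had 53.4, 49.1 and 104 RPM in dcl4-2 on ABA, against 19.3, 7.52 and 40.9 RPM in dcl4-2 on MS. In dcl4-2 dcl2-1 it had 10.9, 13.6 and 38.7 RPM on ABA, against 27.4, 31.3 and 20.99 RPM on MS. In Col-0 it had 26.0, 19.1 and 35.9 RPM on ABA, against 14.3, 16.1 and 8.61 RPM on MS. Its ABA libraries were all above its MS libraries in dcl4-2 and Col-0, as for MIR165b.

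MIR166a, the most abundant of the MIR166 loci with the C-ended window, had 258, 237 and 354 RPM in dcl4-2 on ABA, against 56.6, 27.1 and 97.3 RPM in dcl4-2 on MS. In Col-0 it had 107, 89.6 and 172 RPM on ABA, against 59.3, 53.0 and 56.8 RPM on MS. It had 39.1, 55.3 and 155 RPM in dcl4-2 dcl2-1 on ABA, against 92.2, 101 and 52.5 RPM in that genotype on MS. MIR166b had 55.8, 43.1 and 81.3 RPM in dcl4-2 on ABA and 11.7, 8.16 and 11.1 RPM in dcl4-2 dcl2-1 on ABA, against 23.7, 15.3 and 45.7 RPM in Col-0 on ABA. Both loci were thus higher in every dcl4-2 library on ABA than in any double-mutant library on ABA, with no overlap.

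MIR166c and MIR166d, the neighbouring loci, were the least abundant. MIR166c averaged 10.6 ± 5.22 RPM in dcl4-2 dcl2-1 on ABA and 14.8 ± 13.0 RPM in dcl4-2 dcl2-1 on MS (SD, n = 3 each). It averaged 38.8 ± 18.4 RPM in dcl4-2 on ABA and 18.4 ± 17.8 RPM in dcl4-2 on MS. In Col-0 its libraries had 11.4, 10.4 and 35.3 RPM on ABA, against 23.5, 18.4 and 12.1 RPM on MS. MIR166d averaged 8.45 and 12.6 RPM in dcl4-2 dcl2-1, 37.0 and 13.8 RPM in dcl4-2, and 16.3 and 15.9 RPM in Col-0, each on ABA and on MS. The groups of the 2 media overlapped at both loci in Col-0 and in the double mutant. Both had 0 reads in library C of dcl4-2 dcl2-1 on MS, where a count of 0 allows up to 31.5 RPM (counting error only).

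**Figure D2:**
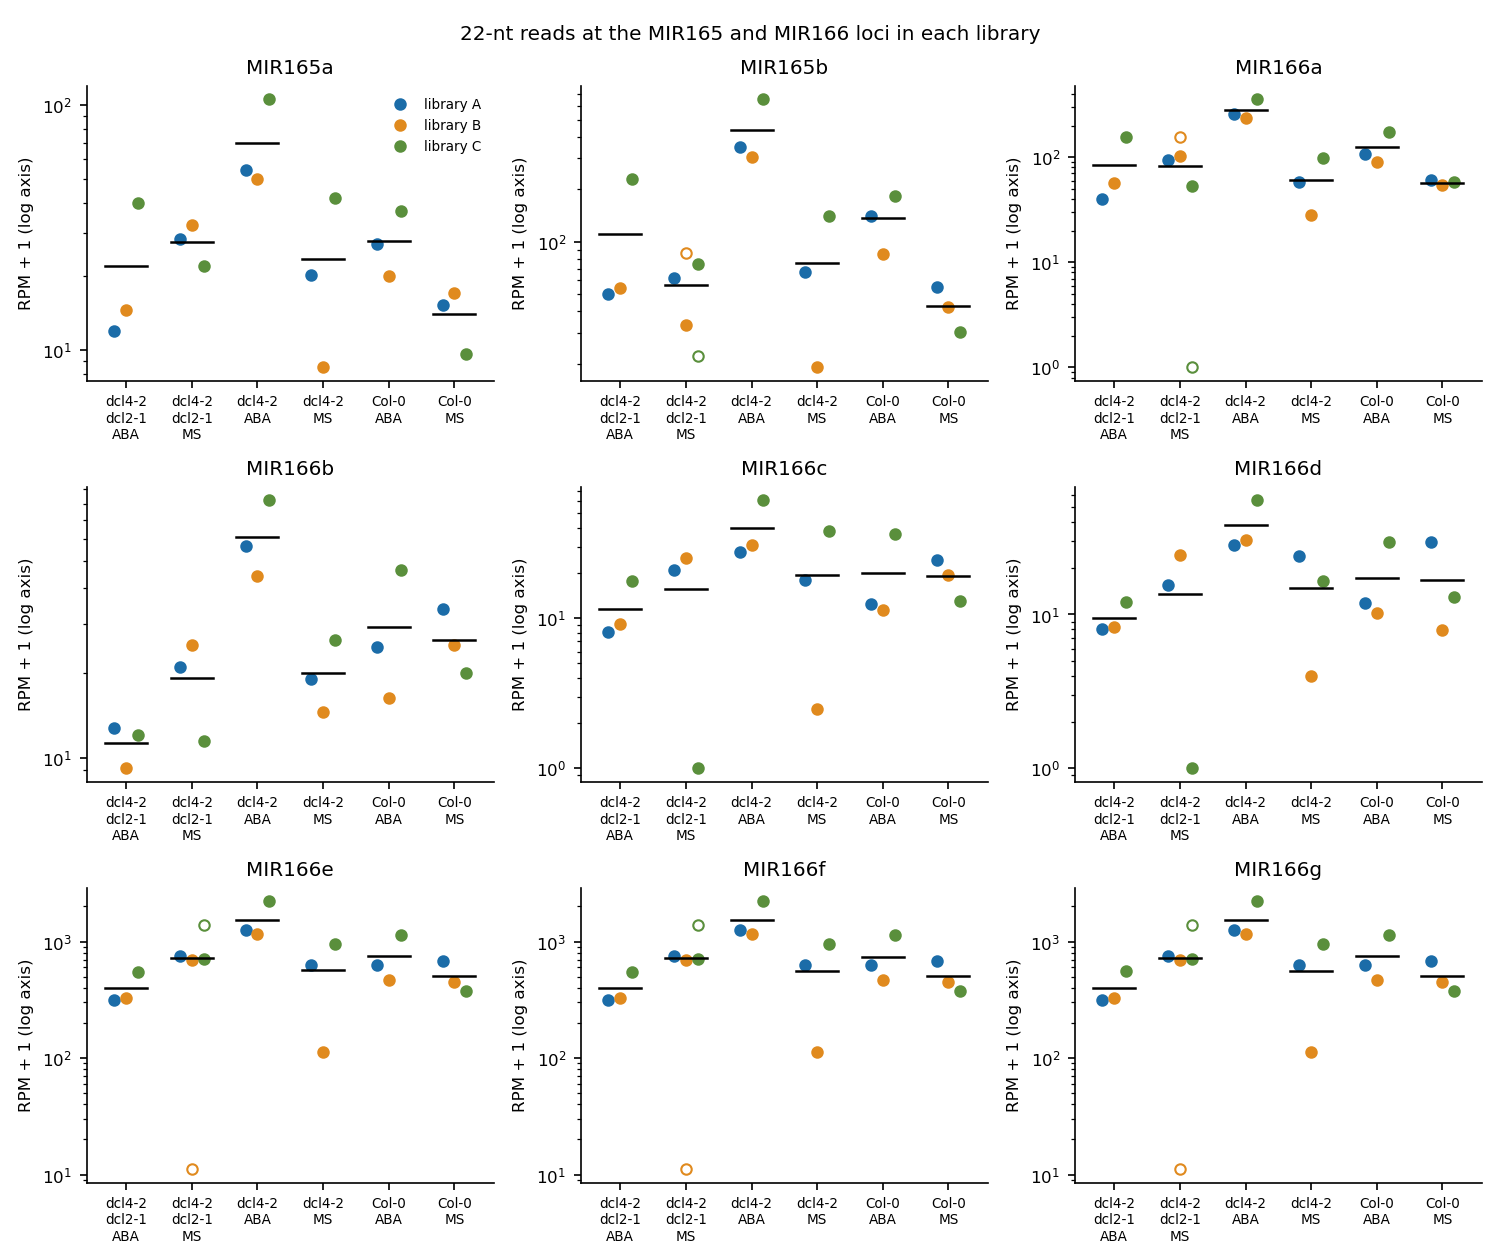
RPM + 1 on a log axis at each of the 9 loci, with 1 point per library (A, B and C by falling depth) and a line at the group mean; open circles show the most unequal set of reads in dcl4-2 dcl2-1 on MS. The dcl4-2 libraries on ABA are highest at every locus by mean, for MIR166e at 1164 to 2210 RPM, and the open circles show how far MIR166e to MIR166g are undetermined in the double mutant on MS.

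By group mean, dcl4-2 on ABA came first and Col-0 on ABA second at all 9 loci. The lowest group was dcl4-2 dcl2-1 on ABA at 6 loci (MIR166b to MIR166g) and Col-0 on MS at 3 (MIR165a, MIR165b and MIR166a). Of the 45 pairs of groups that were neighbours in these orders, 6 did not overlap, and each of those 6 was the step between dcl4-2 on ABA and Col-0 on ABA. The libraries of a group also moved together across the loci. Library C was the highest at 9 of 9 loci in the ABA groups of dcl4-2 and Col-0, and at 8 of 9 in dcl4-2 dcl2-1 on ABA and in dcl4-2 on MS. Library B of dcl4-2 on MS was the lowest of its group at 9 of 9 loci. Its 9 loci summed to 409 RPM, against 2074 and 3212 RPM in libraries A and C, while its other miRNA loci summed to 1718 RPM, against 1771 and 2846 RPM.

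The first comparison was ABA against MS within each genotype, tested with limma on log2(RPM + 1) over 5695 genes with Benjamini-Hochberg adjustment and called at an adjusted p under 0.05. All 9 loci passed the filter on low values. In dcl4-2, 5 of the 9 loci rose on ABA, against 5.3% of all tested genes called higher. The 5 include MIR166e, MIR166f and MIR166g, which count as 1 measurement. MIR165b rose by 2.86 ± 0.58 on the log2 scale (SE, with a limma adjusted p of 0.00109). MIR166a rose by 2.37 ± 0.55 (limma adjusted p = 0.00619). MIR166e, MIR166f and MIR166g each rose by 1.86 ± 0.34 (limma adjusted p = 0.000207). The moderated fit behind this SE used an SD of 0.42 for MIR166e, where its own SD was 0.79. With the spread of each gene alone MIR166e, MIR166f and MIR166g were not called (limma adjusted p = 0.106 each). The 4 other loci had log2 fold changes of 1.61 to 1.77 with limma adjusted p of 0.117 to 0.218. The median over the 9 loci was 1.86, beside 0.51 over all tested genes, and at 8 of 9 loci every ABA library lay above every MS library, against 25.5% of all tested genes in that direction.

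With the summed RPM of the other miRNA loci made equal in all libraries, none of the 5 was called and the median of the 9 loci was 0.54, beside 0.10 over all tested genes. MIR166e was then at 0.54 (limma adjusted p = 0.479) and MIR165b at 1.56 (limma adjusted p = 0.231). The calls also rest on few libraries. Without library C of dcl4-2 on ABA none of the 5 was called (limma adjusted p of 0.0620 for MIR165b, 0.0816 for MIR166a and 0.0503 for MIR166e), and without library B of dcl4-2 on MS only MIR165b was called, with the log2 fold change of MIR166e at 0.94. In the authors' deposited table, the loci that passed in this comparison numbered 4 of 9, against 8.14% of its genes with an adjusted p. They were MIR165a, MIR165b, MIR166a and MIR166b, while MIR166e had an adjusted p of 0.0802 in the authors' deposited table.

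In dcl4-2 dcl2-1, none of the 9 loci was called between ABA and MS by limma, against 0.176% of all tested genes called in either direction. The count was also 0 with voom and in the authors' deposited table (0.0233% of its genes passed). At an unadjusted p under 0.05 there were 3 loci, against 7.92% of all tested genes. Those were MIR166e, MIR166f and MIR166g, at log2 fold changes of -0.90, -0.90 and -0.89 (SE 0.34 each; limma adjusted p 0.353, 0.353 and 0.368). The libraries of these 3 did not overlap, against 0.913% of all tested genes that were lower without overlap, but they did under the most unequal set of reads, where the log2 fold change of MIR166e was 0.76. A gene with 0 reads in the shallow library C on MS could not count as lower without overlap. Of the 85 other miRNA loci tested, 5 were lower without overlap. With the summed RPM of the other miRNA loci made equal in all libraries, MIR166e, MIR166f and MIR166g were called lower, MIR166e at -1.93 (limma adjusted p = 0.000278). In that setting 0.318% of all tested genes were called in either direction. The other loci lay between -0.71 for MIR166b and 0.67 for MIR165b.

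In Col-0, none of the 9 was called by limma, by voom or in the authors' deposited table, against 0.667% of all tested genes called by limma in either direction and 2.57% of the genes of the authors' deposited table. MIR165b was the only one of the 9 with an unadjusted p under 0.05, which 15.9% of all tested genes had, at a log2 fold change of 1.64 ± 0.58 (limma adjusted p = 0.162). MIR165a and MIR166a followed at 1.00 and 1.06. The ABA libraries of these 3 loci lay above the MS libraries without overlap, as did 16.3% of all tested genes. The log2 fold change was positive at 8 of 9 loci, but at 1 of 9 when the summed RPM of the other miRNA loci was made equal in all libraries.

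The second comparison was between genotypes on the same medium. On ABA, 6 of the 9 loci fell in dcl4-2 dcl2-1 relative to dcl4-2, against 6.18% of all tested genes called lower. Among the 6 are MIR166e, MIR166f and MIR166g, which count as 1 measurement. The log2 fold change was -2.27 ± 0.58 for MIR165b (limma adjusted p = 0.0108), -1.99 ± 0.55 for MIR166a (limma adjusted p = 0.0201) and -2.40 ± 0.73 for MIR166b (limma adjusted p = 0.0342). It was -1.95 ± 0.34 for MIR166e (limma adjusted p = 6.67e-05), and MIR166f and MIR166g gave -1.95 and -1.94. With the spread of each gene alone MIR165b, MIR166e, MIR166f and MIR166g were not called (limma adjusted p of 0.0867, 0.0906, 0.0906 and 0.0919). MIR165a, MIR166c and MIR166d had -1.79, -1.78 and -1.97 with limma adjusted p of 0.115, 0.187 and 0.131. The 2 groups did not overlap at any of the 9 loci, where 25.7% of all tested genes were lower without overlap. The median of the 9 was -1.95, beside -0.51 over all tested genes.

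The dcl4-2 libraries on ABA enter this comparison and the one between media in dcl4-2, so they are not separate evidence. Without library C of dcl4-2 on ABA, library A of dcl4-2 dcl2-1 on ABA or library B of dcl4-2 dcl2-1 on ABA, 3 of the 6 calls remained, those of MIR166e, MIR166f and MIR166g. The calls of the same 3 loci remained with the summed RPM of the other miRNA loci made equal, MIR166e at -1.73 (limma adjusted p = 0.00189). In the authors' deposited table, the loci that passed numbered 7 of 9, all but MIR165b and MIR166c, against 8.88% of its genes with an adjusted p.

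The other genotype comparisons gave no call at the 9 loci with limma or with voom. In dcl4-2 against Col-0 on ABA all 9 log2 fold changes were positive, with a median of 1.15 beside 0.08 over all tested genes. By adjusted p, 0.228% of all tested genes were called. An unadjusted p under 0.05 was found at 5 of 9 loci, against 5.88% of all tested genes. MIR165b had 1.67 ± 0.58 (limma adjusted p = 0.383) and MIR166e 1.09 ± 0.34 (limma adjusted p = 0.277). The libraries did not overlap at 6 of 9 loci, against 9.1% of all tested genes that were higher without overlap. MIR166e, MIR166f and MIR166g were called when NIA1 and NIA2 were taken out of the library totals, and also without library B of dcl4-2 on MS. With NIA1 and NIA2 taken out, 0.505% of all tested genes were called in this comparison.

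In dcl4-2 dcl2-1 against Col-0 on ABA all 9 log2 fold changes were negative, from -1.25 for MIR166b to -0.51 for MIR165a. By adjusted p, 0.615% of all tested genes were called. An unadjusted p under 0.05 was found at 3 of 9 loci, against 18.1% of all tested genes. Only MIR166b had libraries without overlap there, against 21.7% of all tested genes that were lower without overlap. On MS, dcl4-2 dcl2-1 against dcl4-2 gave 3 loci with an unadjusted p under 0.05, MIR166e to MIR166g at 0.81 to 0.82, against 8.08% of all tested genes. There too 0.615% of all tested genes were called by adjusted p. Under the most unequal set of reads this comparison had 1 positive and 8 negative log2 fold changes, with a median of -0.69. On MS, dcl4-2 against Col-0 and dcl4-2 dcl2-1 against Col-0 gave 0 loci with an unadjusted p under 0.05, against 9.17% and 12.2% of all tested genes. By adjusted p, 0.299% and 1.21% of all tested genes were called. In dcl4-2 dcl2-1 on MS, MIR165a, MIR166e, MIR166f and MIR166g lay above Col-0 on MS without overlap, 4 of 9 loci, against 0.509% of all tested genes. For MIR166e to MIR166g this held under the most even set of reads and not under the most unequal one. Of the 85 other miRNA loci tested, 7 lay above Col-0 on MS without overlap. In library C of dcl4-2 dcl2-1 on MS 1 read was worth 10.5 RPM. A gene with 0 reads there could not lie above Col-0, which lowers the share of all tested genes.

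**Figure D3:**
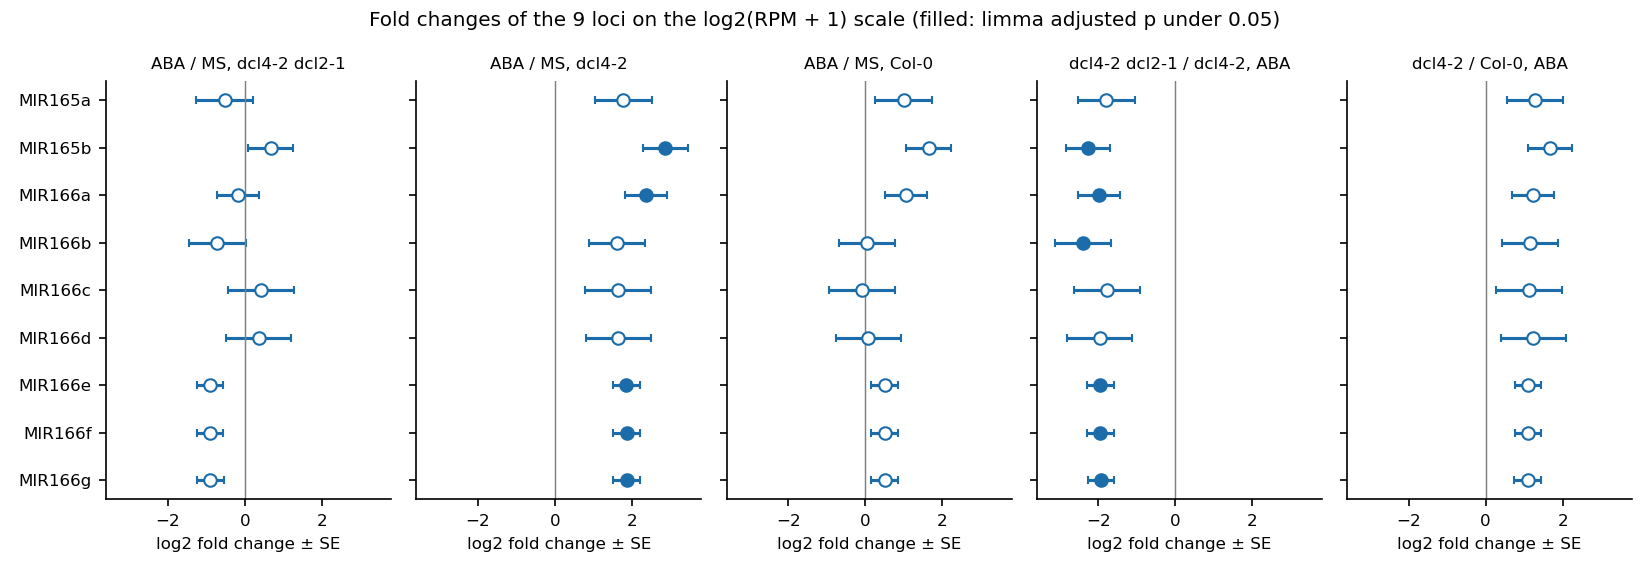
Log2 fold change on the log2(RPM + 1) scale with its SE for each locus in 5 comparisons, first group over second; filled points have a limma adjusted p under 0.05. In dcl4-2 on ABA against MS all 9 points are right of 0 and 5 are filled, and in dcl4-2 dcl2-1 against dcl4-2 on ABA all 9 are left of 0 and 6 are filled.

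The difference between ABA effects was tested directly as an interaction in the same model. The ABA effect in dcl4-2 dcl2-1 minus that in dcl4-2 was negative at 9 of 9 loci, and 3 were called, against 0.193% of all tested genes called lower. It was -2.76 ± 0.49 for MIR166e and MIR166f and -2.75 ± 0.49 for MIR166g (limma adjusted p = 0.00016 each), and the 3 count as 1 measurement. These 3 calls use the most even set of reads in the double mutant on MS, and the most unequal set gave -1.10 for MIR166e (limma adjusted p = 0.731). MIR166a had -2.55 ± 0.78 (limma adjusted p = 0.220) and MIR165b -2.19 ± 0.82 (limma adjusted p = 0.334). The ABA effect in dcl4-2 minus that in Col-0 was positive at 9 of 9 loci, with a median of 1.35 beside 0.23 over all tested genes. None of the 9 was called there by limma or voom, against 0.263% of all tested genes called. An unadjusted p under 0.05 was found at 3 of the 9, against 6.5% of all tested genes. For dcl4-2 dcl2-1 minus Col-0 none was called by limma or voom, against 0.158% of all tested genes called. Again 3 of the 9 had an unadjusted p under 0.05, against 7.45% of all tested genes. The median of the 9 was -1.23 under the most even set of reads and 0.26 under the most unequal one.

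The 2 miR165 loci could be compared within a library, where the scaling of the library has no effect. MIR165b had 6.52, 6.19 and 6.24 reads per MIR165a read in the dcl4-2 libraries on ABA, against 3.44, 2.40 and 3.43 in the dcl4-2 libraries on MS. In dcl4-2 dcl2-1 it had 4.50, 3.93 and 5.86 on ABA, against 2.23, 1.03 and 3.50 on MS. In Col-0 it had 5.33, 4.37 and 5.07 on ABA, against 3.79, 2.57 and 3.40 on MS. In each genotype every ABA library was above every MS library, and in the double mutant this held for both possible sets of reads, the other being 2.23, 2.71 and 1.00 on MS. The MS ratios rest on few MIR165a reads, 30, 31 and 2 in dcl4-2 dcl2-1, 16, 5 and 21 in dcl4-2 and 14, 14 and 5 in Col-0. In the double mutant 3.93 on ABA was 59 over 15 reads and 3.50 on MS was 7 over 2. Counting error was not computed for the ratios, so the separation there is not determined. The mean ratio was 6.32 ± 0.179 in dcl4-2 on ABA and 3.09 ± 0.596 in dcl4-2 on MS (SD, n = 3 each). MIR165a and MIR165b share no 22-base stretch, so no read without a mismatch could be counted at both. The ratio was chosen after the levels had been seen, and no test is given for it.

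**Figure D4:**
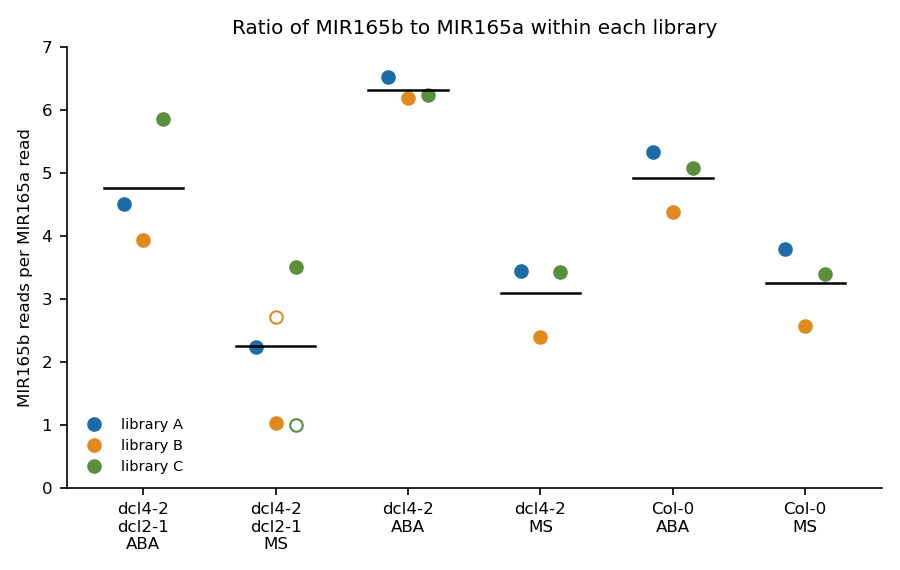
MIR165b reads per MIR165a read in each library (points A, B and C) by group, on a linear axis from 0; open circles show the other possible set of reads in dcl4-2 dcl2-1 on MS. The ABA libraries lie at 3.93 to 6.52 and the MS libraries at 1.03 to 3.79, without overlap inside any genotype. Library C of dcl4-2 dcl2-1 on MS rests on 2 MIR165a reads, and counting error is not shown.

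The ratio of MIR166e to MIR165b was lower on ABA in dcl4-2 and Col-0. MIR165b is the divisor here and was divided by MIR165a above. A fall here and a rise there thus both mean more MIR165b reads relative to the other locus. MIR166e had 3.39 to 3.83 reads per MIR165b read in dcl4-2 on ABA, against 6.25 to 9.44 in dcl4-2 on MS. In Col-0 the range was 4.51 to 6.25 on ABA, against 10.8 to 12.9 on MS. Both genotypes were without overlap. In dcl4-2 dcl2-1 it was 2.41 to 6.35 on ABA, against 9.57 to 21.4 on MS under the most even set of reads. Under the most unequal set the MS libraries ran from 0.119 to 66 and the 2 groups overlapped.

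Across the 18 libraries the loci fell into groups that follow their windows only in part. The Pearson correlation of log2(RPM + 1) was 1.000 among MIR166e, MIR166f and MIR166g and 0.940 between MIR166c and MIR166d. It was 0.935 between MIR165a and MIR166a and 0.911 between MIR165b and MIR166a, which share no window. The lowest was 0.506, between MIR165b and MIR166d. The 9 loci share the depth and medium of each library, and MIR166 loci share stretches of sequence.

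Summed over the 9 loci, the level was 1434 ± 588 RPM in dcl4-2 dcl2-1 on ABA and 2359 ± 123 RPM in dcl4-2 dcl2-1 on MS. It was 5551 ± 2072 RPM in dcl4-2 on ABA and 1898 ± 1410 RPM in dcl4-2 on MS, and 2577 ± 1194 RPM in Col-0 on ABA and 1679 ± 516 RPM in Col-0 on MS (SD, n = 3 each). The SD of 123 RPM comes from the most even set of reads, which was picked for its small spread. For MIR166e alone in that group the most unequal set gave an SD of 688 RPM. The other 169 miRNA loci summed to 4550 and 2178 RPM in dcl4-2 dcl2-1, to 5215 and 2112 RPM in dcl4-2, and to 6217 and 2441 RPM in Col-0, each on ABA and on MS. The 9 loci therefore held 24.0% of the miRNA-locus RPM in dcl4-2 dcl2-1 on ABA and 52.0% on MS, 51.6% in dcl4-2 on ABA and 47.3% on MS, and 29.3% in Col-0 on ABA and 40.8% on MS. Without MIR166f and MIR166g these shares were 12.3% and 29.8%, 32.1% and 26.8%, and 14.9% and 21.6%. By library, the share was 48.0%, 49.6% and 55.1% in dcl4-2 on ABA, against 53.9%, 19.2% and 53.0% in dcl4-2 on MS, so the 2 groups overlapped. Without library B of dcl4-2 on MS the share of that group was 53.4%, above the 51.6% on ABA. Under the most even set of reads the libraries did not overlap in dcl4-2 dcl2-1, with 21.9% to 26.0% on ABA against 49.6% to 54.3% on MS. Under the most unequal set, library B on MS had 10.09 RPM at each of MIR166e, MIR166f and MIR166g. The shares by library were not computed for that set, so this separation is not determined. In Col-0 the libraries did not overlap, with 25.0% to 31.6% on ABA against 35.0% to 44.6% on MS. Of the RPM of all genes, the 9 loci held 8.84% in dcl4-2 dcl2-1 on ABA and 19.1% on MS. They held 1.91% in dcl4-2 on ABA and 7.31% on MS, and 10.06% in Col-0 on ABA and 9.29% on MS. With NIA1 and NIA2 left out of the RPM of all genes, the dcl4-2 shares were 17.7% on ABA and 13.1% on MS. The order of the media was thus reversed in dcl4-2, and it was unchanged in dcl4-2 dcl2-1 and in Col-0.

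Of the 169 other miRNA loci, 85 passed the filter. In dcl4-2 on ABA against MS, 19 of them were called higher and 1 lower, with a median log2 fold change of 0.99 beside 1.86 for the 9 loci. In dcl4-2 dcl2-1 against dcl4-2 on ABA, 0 were called higher and 5 lower, with a median of -0.54 beside -1.95. In Col-0 on ABA against MS, 5 were called higher and 0 lower, with a median of 0.78 beside 0.50 for the 9 loci. In dcl4-2 dcl2-1 on ABA against MS, 6 were called higher and 1 lower, with a median of 0.31 beside -0.51. The median of the 9 loci there was 0.76 under the most unequal set of reads.

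The 22-nt reads at the target genes followed another order of groups. Such reads are small RNAs that match the genes and do not measure their mRNA. Of the 5 class III HD-ZIP genes, 4 passed the filter, and all 4 fell on ABA in Col-0, against 0.351% of all tested genes called lower. HB-8 reached 1 RPM only in the Col-0 libraries on MS, so it passed the filter through that group alone. The direction of its calls that use that group, here and below, was therefore fixed by the filter. REV, a regulator of the shoot meristem and leaf upper side, had 2 reads over the 3 Col-0 libraries on ABA and 215 over the 3 on MS, a log2 fold change of -5.69 ± 0.76 (limma adjusted p = 2.76e-08). PHB, PHV and HB-8 had 0 reads in Col-0 on ABA, against 150, 53 and 92 reads on MS. Pooled over the libraries of a group, they were at least 114-fold, 40.4-fold and 70.1-fold lower, with the floor set at 3 reads over the group. These bounds leave out the spread between libraries. The 5 HD-ZIP genes summed to 252, 44.9 and 401 RPM in libraries A, B and C of Col-0 on MS. CNA had 0 reads on ABA and 8 on MS in Col-0 and was not tested.

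In dcl4-2 on MS, REV, PHV and HB-8 were lower than in Col-0 on MS, 3 of the 4 tested, against 0.246% of all tested genes called lower. PHB was not called in that comparison, with 17 reads in dcl4-2 on MS and 150 in Col-0 on MS. In dcl4-2 dcl2-1 on MS all 4 were at 0 reads and were called lower than in Col-0 on MS, against 1.19% of all tested genes called lower. REV lost its call without library A or library C of Col-0 on MS and without library B of dcl4-2 on MS (limma adjusted p of 0.0732, 0.119 and 0.146), and PHV was called in 15 of 29 alternatives. PHB, a further leaf polarity factor, was lower in dcl4-2 dcl2-1 than in dcl4-2 on both media, with 0 against 113 reads on ABA and 0 against 17 on MS, at least 4.16-fold and 6.15-fold lower. Those calls held in 21 and 11 of 29 alternatives, and on MS 0.544% of all tested genes were called lower. The ABA effect was higher in dcl4-2 than in Col-0 at all 4 genes, with a median difference of 5.09 on the log2 scale, against 0.263% of all tested genes called higher. Within dcl4-2 it was -0.72 at REV, -0.15 at PHB, 0.03 at PHV and 0.16 at HB-8, and none was called. The difference thus mainly reflects the fall in Col-0. The ABA effect was also higher in dcl4-2 dcl2-1 than in Col-0 at all 4, with a median difference of 5.51, against 0.14% of all tested genes. At REV, PHB and PHV the double mutant had 0 reads on both media, so there the difference is the fall in Col-0 with its sign reversed. At HB-8 the double mutant had 1 read, on ABA. Of the calls in these differences PHV kept 17 and 16 of 29 and REV 21 and 27 of 29. PHB kept at least 27 of 29, and HB-8 all 26 alternatives in which it was tested. The HD-ZIP genes were highest by mean in Col-0 on MS. That group was the lowest by mean at MIR165a, MIR165b and MIR166a, and ranked 3 to 5 of 6 at MIR166b to MIR166g.

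**Figure D5:**
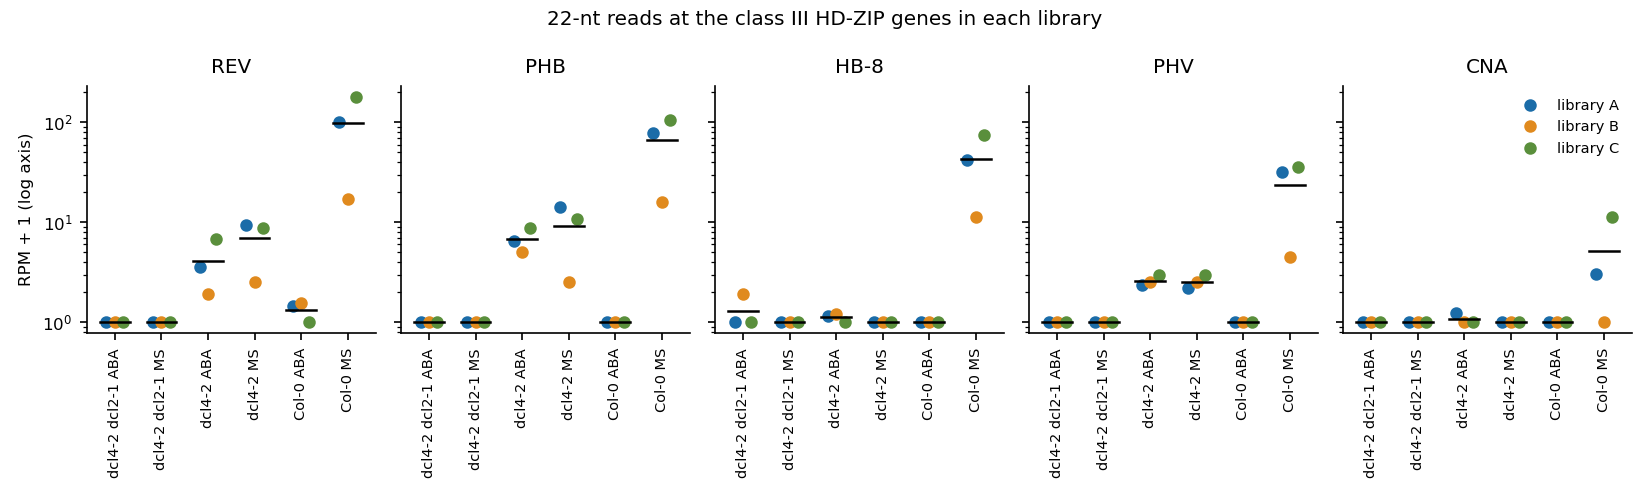
RPM + 1 on a log axis at the 5 class III HD-ZIP genes, with 1 point per library and a line at the group mean. The Col-0 libraries on MS are the highest at all 5 genes by mean, and all libraries of dcl4-2 dcl2-1 on MS are at 0 reads.

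The other gene lists of the pathway held few 22-nt reads. The 3 ZPR genes in the table, small partners that hold HD-ZIP III proteins in inactive pairs, had 0 RPM in all groups. None of 9 leaf polarity and root patterning regulators passed the filter, the largest group means being 1.72 RPM for SCR, a root endodermis factor, and 1.15 RPM for YAB3, which acts on the lower side of the leaf. Of 16 genes of miRNA biogenesis and turnover, 3 passed. AGO1, the main effector of miRNAs, had group means of 0 RPM in dcl4-2 dcl2-1 on ABA and 3.50 RPM in dcl4-2 on ABA, with a log2 fold change of -2.12 ± 0.63 (limma adjusted p = 0.0317), and it passed in no other comparison. The call was lost without any one of the 6 libraries compared (limma adjusted p of 0.0604 to 0.110). DCL1 and CBP80, a subunit of the nuclear cap-binding complex, passed in none, with group means of at most 2.00 and 0.805 RPM.

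Among tested genes outside the 9, those most like MIR166g over the 18 libraries had Pearson correlations of 0.727 to 0.744 on the log2(RPM + 1) scale. They were the pseudogenes AT2G07723 (0.744), AT3G42252 (0.735) and AT2G07747 (0.730), the miRNA gene MIR167c (0.731) and the protein-coding gene AT1G06580 (0.727). MIR167c averaged 22.5 ± 4.21 RPM in dcl4-2 on ABA, against 4.20 ± 3.93 RPM in dcl4-2 on MS (SD, n = 3 each), and the other 4 genes were lower, with group means of at most 6.47 RPM.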

How the data were processed

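The deposited table covers 18 small RNA libraries in 6 groups and counts 22-nt reads at 32420 genes. The submitters' processing notes name Bowtie 1.2.2, SAMtools 1.9, DESeq2 and the build TAIR10 without roles. The sources used here do not state the number of mismatches allowed or the strand counted. The authors deposited group means headed TPM, but per the values no gene length entered, and they are means of RPM (reads per 1 M reads) over 3 libraries. TPM had been planned for. The test needed no change. The table also holds the authors' deposited log2 fold changes, p-values and adjusted p-values for 4 comparisons.

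Each mean is a sum of whole reads of 3 libraries, each read worth a fixed RPM, so the reads of each library were solved for. Where several sets of reads gave the same mean, the most even set was used. NIA1 and NIA2 in dcl4-2 on ABA could not be resolved and were left out of the test. Genes that reached 1 RPM in 3 or more libraries were tested, 5695 of 21459 genes with a read. limma 3.58.1 in R 4.3.3 was fitted with a variance trend to log2(RPM + 1) over all 18 libraries, 2-sided, with Benjamini-Hochberg adjustment over all tested genes. Fold changes on this scale understate the change of low genes. The scripts were tested on simulated data.

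All 9 loci are named. Of the HD-ZIP III, ZPR, patterning and biogenesis lists, members that passed and the 2 most abundant that did not were named. Other miRNA loci are given as counts and medians. The members, lists and tests were chosen with earlier results of these data known. Depth sets the precision, and intervals or floors cover counting error only. Alternatives changed the filter, the pseudocount, the groups fitted, the scaling, the test, the set of reads and the libraries used.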

Additional observations from a re-analysis of the deposited data

Results flagged for a closer look

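The ABA effect, meaning the log2 fold change between ABA and MS, differed between dcl4-2 dcl2-1 and dcl4-2 at MIR166e, MIR166f and MIR166g by a direct test. The difference was -2.76 for MIR166e, -2.76 for MIR166f and -2.75 for MIR166g (SE 0.49 each; limma adjusted p = 0.00016 each). The 3 loci hold nearly the same reads, so they count as 1 result. The difference kept its sign but not its call under the most unequal set of reads of the double mutant on MS, at -1.10 for MIR166e (limma adjusted p = 0.731). It was also not called with voom (limma adjusted p = 0.149), with a robust prior variance (0.0886), with the spread of each gene alone (0.263) or with no filter on low values (0.589). The SD of MIR166e between libraries of a group was 0.79 on the log2 scale, and the moderated fit used 0.42.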

How the results depend on the processing

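Counts of called loci among the 9 are given, with the count reported above first. For ABA against MS in dcl4-2 (5), it was 0 with no filter on low values, 3 with only the groups compared in the fit, 0 with the summed RPM of other miRNA loci made equal, 1 with the most unequal set of reads, 3 with the spread of each gene alone, 7 without NIA1 and NIA2 in the totals, 6 without the 2 libraries under 0.2 M reads, and 0 to 5 when each library was left out in turn. For dcl4-2 dcl2-1 against dcl4-2 on ABA (6), the same settings gave 0 with no filter, 3 with equal miRNA sums, 0 with the unequal set, 2 with each gene's spread alone, 8 without NIA1 and NIA2, 7 without the 2 shallow libraries and 3 to 6 on leaving out libraries. For the ABA effect in dcl4-2 dcl2-1 minus that in dcl4-2 (3), it was 0 with no filter, voom, the unequal set, a robust prior variance or each gene's spread alone, 4 without the 2 shallow libraries, and 3 to 3 on leaving out libraries. Where nothing was called above, 3 loci were called for ABA against MS in dcl4-2 dcl2-1 with equal miRNA sums. For dcl4-2 against Col-0 on ABA it was 1 with only the groups compared, 3 without NIA1 and NIA2 in the totals and 0 to 3 on leaving out libraries. Leaving out library C of dcl4-2 on MS gave 3, in a range of 0 to 3, for dcl4-2 dcl2-1 against dcl4-2 on MS and for the ABA effect in dcl4-2 minus that in Col-0. The other results gave 0 to 0 on leaving out libraries. The share of all tested genes called in either direction moved as well. For ABA against MS in dcl4-2 it was 5.58% in the main fit and 17.6% without NIA1 and NIA2. It was 10.3% without the 2 shallow libraries, 0.505% with equal miRNA sums and 5.29% with the unequal set. For dcl4-2 dcl2-1 against dcl4-2 on ABA the same shares were 6.29%, 17.2%, 3.85%, 0.599% and 6.16%. The cause of these changes was not tested. Among called loci no direction reversed. Equal miRNA sums shifted the median of all tested genes by -0.49 in Col-0 and -0.42 in dcl4-2 (ABA against MS, log2), and taking NIA1 and NIA2 out shifted it by 0.19 in dcl4-2. Robust variance, each gene's spread alone and leaving out the libraries under 0.2 M reads were chosen after seeing the data. The planned edgeR test was not run, since no column holds counts. No paired analysis was possible because the recovered libraries carry no replicate number. Depth limits MIR166c and MIR166d most.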
